A study of Homo sapiens with 30 samples.

Results

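The genes that carry a cell through G1 were followed in U87 and U251, established cell lines from human glioblastoma, during long exposure to interferon-gamma (IFN-γ) and after its withdrawal. They are 10 genes chosen by name, namely the D-type cyclins CCND1, CCND2 and CCND3, the E-type cyclins CCNE1 and CCNE2, the kinases CDK4 and CDK6, and the inhibitors CDKN1B, CDKN2A and CDKN2C. All 10 were found among the 61471 rows of each line's table, and 8 of the 10 reached a mean of 0.5 TPM in each line, where TPM is a level scaled for gene length and for the sum over all genes. The 2 that did not were CDKN2A and CDKN2C in both lines.

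RNA was taken from cells grown without IFN-γ (Untreated), from cells kept under IFN-γ until day 3 (D3), day 14 (D14) or day 28 (D28), and from cells given IFN-γ for 14 days and then none until day 28 (D28WO, washout). Both lines were labelled wild type and had no other treatment. The labels give an IFN-γ dose of 1 µg/mL and put the Untreated cells at day 3, while the study's methods give a lower dose and an untreated sample from the start. No Untreated library comes from day 14 or day 28. In comparisons of D14, D28 or D28WO with Untreated, the treatment and the time in culture cannot be told apart. According to these methods the replicates were independent cultures, and the identity of the lines was not checked by genotyping. There were 15 libraries of U251, 3 in each group, and 13 of U87, 3 in each group except D3 and D14 with 2.

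The libraries held 24223 to 28649 genes above 0 in U87 and 24450 to 30246 in U251. TPM keeps no sequencing depth, so no upper limit can be set for a value of 0. Genes common in glioblastoma lines (VIM, CD44, NES, EGFR) were expressed in all libraries of both lines, whereas the glial genes SOX2 and S100B averaged 0.142 and 1.52 TPM in U87 against 139 and 93.0 TPM in U251, and OLIG2 11.4 TPM in U87 against 0.415 TPM in U251. Of the 8 genes of this list (with GFAP), 7 were tested in each line. In U251 all 7 were lower than in Untreated at D3 (median -0.93, log2) and at D28 (-0.90), and 6 of the 7 at D14 (-0.41) and in D28WO (-0.81). In U87, 0 were higher and 1 lower at D3, 0 were called at D14 (3 at an unadjusted p under 0.05), 3 were higher at D28, and 3 were higher and 3 lower in D28WO. Of all genes in U251, 16%, 7.31%, 14.7% and 13.4% were called lower at D3, D14, D28 and D28WO. In U87 4.28% were lower at D3, 17.2% higher at D28, and 28.6% higher and 13.4% lower in D28WO. Beside these shares the higher calls in U87 are no result about the list. The U87 calls at D3 and D28 were unstable, with 0 to 2 higher and 0 to 1 lower at D3 and 1 to 3 higher at D28 when 1 library was left out (1 without replicate 3 of Untreated or replicate 1 or 2 of D28). At D14 of U251 the 6 lower fell to 4 without replicate 3 of D14. All 3 immune markers (PTPRC, CD3E, CD14) averaged under 0.5 TPM in U87, and 2 of the 3 in U251, where CD14 averaged 2.55 TPM. In U251 the endothelial marker CDH5 was lower than in Untreated in all 4 comparisons (log2 difference -4.19 at D3, -1.25 at D14, -3.70 at D28, -3.19 in D28WO), and in U87 it was lower in D28WO (-0.89), while PECAM1, the other marker of that list, was not called against Untreated. The CDH5 call was lost at D14 of U251 without replicate 2 or 3 of D14, and in D28WO of U87 without any one of 7 libraries, each D28WO library among them. In U87 the epithelial marker EPCAM was lower by -1.64 in D28WO, and CDH1, the other one, was not called against Untreated. In U251 CD14 was called higher in all 4 comparisons with Untreated, at group means between 2.16 and 4.51 TPM against 0.569 TPM, and the D14 call was lost without replicate 1 or 3 of Untreated. Of the neuronal markers, SYT1 was higher in D28WO of both lines and at D28 of U251, and RBFOX3 at D3 and D28 of U251. The SYT1 call in D28WO of U251 was lost without replicate 1 of D28WO, and at D28 of U251 1 of the 2 neuronal calls was lost without any one of 4 libraries. The part of these markers in the results was not tested.

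All 5 IFN-γ-induced genes used as a check (IRF1, GBP1, GBP2, TAP1, PSMB9) were higher than in Untreated at D3, D28 and D28WO of both lines. At D14 of U87 limma called 0 of the 5, and 0 had an unadjusted p under 0.05. GBP1, a GTPase induced by IFN-γ, averaged 34.2 TPM there against 35.9 TPM in Untreated. At D14 of U251 limma called 4 of the 5 higher than in Untreated, with a median log2 difference of 1.11 beside 2.04 at D3, and GBP2 at 0.25 was not called (limma adjusted p = 0.109). All 5 were lower at D14 than at D3 of U251 (median -0.98), the group in which CCND1, CCND2 and CDK6 also lay nearer to Untreated than at D3. The part of this in the members' values was not tested. In D28WO, where IFN-γ had been absent for 14 days, GBP1 averaged 221 TPM in U87 and 464 TPM in U251, and between D28WO and D28 limma called 0 of the 5 genes in U87 (0 at an unadjusted p under 0.05) and 2 of the 5, both higher, in U251. In these genes the U87 libraries labelled D14 thus lay near Untreated and the libraries labelled D28WO near D28. The cause of this was not tested, and each statement on these groups concerns the libraries so labelled.

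Progress through G1 rests on kinases that are switched on by cyclins. D-type cyclins, made in response to growth signals, bind CDK4 and CDK6 and start the phosphorylation of the retinoblastoma protein RB. RB then releases E2F factors, which switch on the E-type cyclins and the genes of DNA synthesis, and E-type cyclins with CDK2 complete the passage into S phase. The INK4 inhibitors encoded by CDKN2A (p16) and CDKN2C (p18) bind CDK4 and CDK6, and p27, the product of CDKN1B, blocks cyclin E with CDK2. Loss of CDKN2A is among the commonest lesions of glioblastoma, and IFN-γ slows the growth of many cell types.

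The promoters of CCNE1 and CDK6 are shown because they are the E-type cyclin and the kinase that were lower at D3 of U251. Each is the 250 bases before the RefSeq start (GRCh38.p14), 5′ to 3′ on the strand of the gene, chr19:29811741-29811990 on the plus strand for CCNE1 and chr7:92836574-92836823 on the minus strand for CDK6. Capitals would mark matches to TTTNNCGC, an E2F-type motif, or to TTCNNNGAA, the gamma-activated sequence found at many IFN-γ-induced genes, searched on both strands.
CCNE1: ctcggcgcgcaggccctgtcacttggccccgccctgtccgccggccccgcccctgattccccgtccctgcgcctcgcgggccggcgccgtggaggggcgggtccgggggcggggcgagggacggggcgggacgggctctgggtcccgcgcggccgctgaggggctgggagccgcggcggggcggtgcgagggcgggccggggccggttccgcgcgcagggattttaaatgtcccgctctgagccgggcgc
CDK6: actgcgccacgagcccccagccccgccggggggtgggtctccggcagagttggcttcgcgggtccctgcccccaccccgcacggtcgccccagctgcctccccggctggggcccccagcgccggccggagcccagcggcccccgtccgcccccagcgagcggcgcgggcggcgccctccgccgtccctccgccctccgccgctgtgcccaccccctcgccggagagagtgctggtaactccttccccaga
Neither window holds a match, so no capitals appear, and the windows of CCND3, CDK4, CDKN1B, CDKN2A and CDKN2C hold none either. Other starts of these genes were not searched, and the CDKN2A window need not lie before the start of the p16 transcript. Among 27305 RefSeq promoter windows of this length, 5.93% hold the E2F-type motif and 6.78% the gamma-activated sequence. G and C make up 81.2% of the CCNE1 window and 80.0% of the CDK6 window. The table of promoters has no entry for CCND1, CCND2 and CCNE2. Of the members, CCND2, CDK4 and CDKN1B lie on chromosome 12 and the others each on a chromosome of their own (GENCODE release 44, GRCh38).

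Differences between groups were tested on log2(TPM + 1) with limma, with all groups of a line in 1 fit. A gene was called where its Benjamini-Hochberg adjusted p over all 22918 genes tested in U87, or 23667 in U251, was under 0.05. A fold change on this scale understates the change of a gene with low TPM. The lines were normalized in separate tables, so no test was made between them. The median difference of all genes from Untreated was 0.20, 0.15, 0.19 and 0.25 (log2) at D3, D14, D28 and D28WO of U87, and 0.13, 0.096, 0.16 and 0.015 in U251. The medians of the members tested were 0.20, -0.13, -0.04 and -0.26 in U87, and -0.10, 0.24, 0.08 and -0.05 in U251. In these bulk libraries, fewer cells that express a gene and less RNA per cell cannot be told apart.

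In U87, 1 of the 8 members tested was called against Untreated at D3, 0 were at D14, 3 at D28 and 4 in D28WO. Of all genes tested in U87, 12.4% were called higher and 4.28% lower at D3, 4.14% and 1.02% at D14, 17.2% and 6.55% at D28, and 28.6% and 13.4% in D28WO. At D14 limma called 0 members although 4 had an unadjusted p under 0.05. The call at D3 was CDK4, and it was lost without any 1 of 9 libraries. The calls at D28 were 2 higher (CCND2, CDK6) and 1 lower (CDK4), and those in D28WO 1 higher (CCND2) and 3 lower (CCND3, CCNE2, CDK4). Median-ratio size factors gave 1 higher and 1 lower at D28 and quantile normalization 1 and 0, and both gave 0 higher and 5 lower in D28WO. There both scalings lost CCND2 and added CCNE1, with CDK6 added by quantile normalization and CCND1 by median-ratio size factors.

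In U251, 6 of the 8 members tested were called at D3, 3 at D14, 5 at D28 and 3 in D28WO. There 24.9% of all genes were called higher and 16.0% lower at D3, 13.8% and 7.31% at D14, 25.9% and 14.7% at D28, and 14.3% and 13.4% in D28WO. CCND1, CCND2 and CCND3 were higher at D3 and at D28. CDK6 and CDKN1B were lower at both of these times, joined by CCNE1 at D3. At D14 CCND3 and CCNE1 were higher and CDKN1B lower, and in D28WO CCNE1, CCNE2 and CDK6 were lower.

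**Figure D1:**
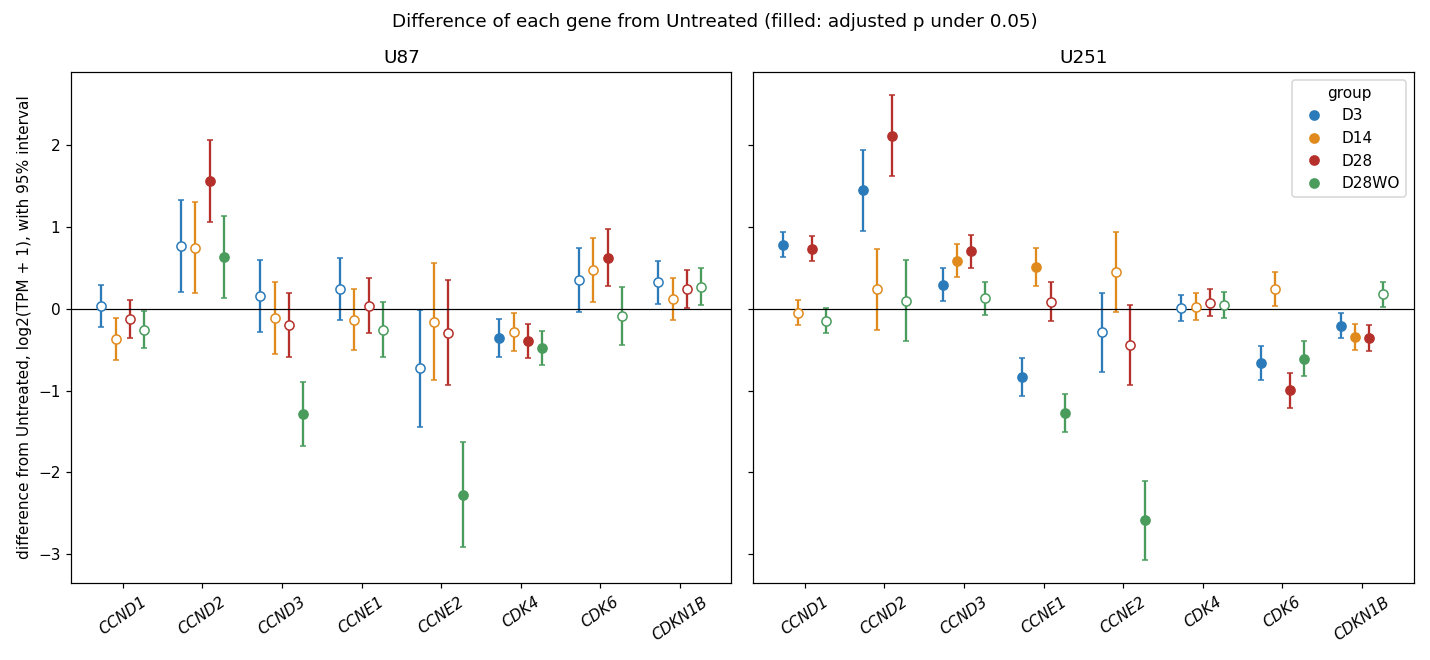
Difference of each gene from Untreated on the log2(TPM + 1) scale (vertical axis) for the 8 members tested, in U87 (left) and U251 (right), with 95% intervals from limma. Colors give the group and filled points an adjusted p under 0.05. CCNE2 in D28WO is the lowest point of both panels, at -2.27 in U87 and -2.59 in U251, and CCND2 at D28 the highest, at 1.56 and 2.12.

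CCND1 encodes cyclin D1. In U251 its level was 114, 124 and 118 TPM in Untreated, 212, 216 and 187 TPM at D3, 110, 117 and 117 TPM at D14, 205, 185 and 204 TPM at D28, and 103, 103 and 116 TPM in D28WO. The D3 and D28 libraries lay above all others, and neighbouring ranges of Untreated, D14 and D28WO overlapped. CCND1 was 1.72-fold higher than Untreated at D3 (log2 difference 0.78, SE 0.0702, limma adjusted p = 1.03e-06) and 1.66-fold higher at D28 (0.73, SE 0.0702, limma adjusted p = 1.76e-06). It was lower at D14 than at D3 (log2 difference -0.83, limma adjusted p = 1.89e-06), higher at D28 than at D14 (0.78, limma adjusted p = 3.43e-06) and lower in D28WO than at D28 (-0.88, limma adjusted p = 1.04e-06). In U87 CCND1 stood at 273, 266 and 354 TPM in Untreated and between 219 and 311 TPM in the other groups, and it was called in 0 of the 7 comparisons. Its difference from Untreated in D28WO of U87 was -0.25 (limma adjusted p = 0.0721), and under median-ratio size factors it was -0.49 and called (limma adjusted p = 0.0207), as it was without replicate 2 of Untreated. From D3 to D14 of U87 the difference of -0.41 (limma adjusted p = 0.105) was called under quantile normalization (-0.46, limma adjusted p = 0.0293) and without replicate 3 of Untreated. At D14 of U87 both libraries lay below all 3 of Untreated, with a difference of -0.37 (limma adjusted p = 0.0897, unadjusted p = 0.00837).

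CCND2, the gene of cyclin D2, was low in both lines and highest at D28. In U251 it was listed at 0.0703, 0 and 0 TPM in Untreated, 2.45, 1.73 and 1.31 TPM at D3, 0.216, 0.127 and 0.285 TPM at D14, 4.29, 3.78 and 2.45 TPM at D28, and 0.0391, 0.119 and 0.133 TPM in D28WO. Every D3 and D28 library lay above every library of the other groups. The differences from Untreated were 1.45 (log2, SE 0.231, limma adjusted p = 0.000196) at D3 and 2.12 (SE 0.231, limma adjusted p = 6.3e-06) at D28.

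In U87 CCND2 rose from 0.234, 0.319 and 0.217 TPM in Untreated to 3.47, 2.69 and 2.10 TPM at D28, a difference of 1.56 (log2, SE 0.229, limma adjusted p = 0.000707). Its D3 and D14 libraries lay above all 3 of Untreated, at no more than 1.19 TPM, but the differences of 0.77 and 0.75 did not pass the test with 2 libraries a group (limma adjusted p = 0.0600 and 0.111). The D28WO libraries of U87 held 1.13, 0.959 and 0.757 TPM, below all 3 of D28. Against Untreated this was a difference of 0.63 (limma adjusted p = 0.0443), a call that was lost without any 1 of 7 libraries (each of Untreated and of D28WO, and replicate 2 of D28) and was 0.09 under quantile normalization. The difference from D28 was -0.93 (limma adjusted p = 0.0154), and it was not called without replicate 1 of D28 (-0.80) or replicate 3 of D28WO (-0.86). CCND2 made up at most 1.25% of the summed TPM of the D-type cyclins in any library.

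CCND3, the gene of cyclin D3, had a mean of 88.6 ± 10.6 TPM in Untreated of U251 (SD, n = 3), 108 ± 4.29 TPM at D3, 133 ± 8.32 TPM at D14, 145 ± 16.3 TPM at D28 and 96.6 ± 6.18 TPM in D28WO (each n = 3). The ranges of D28 and D14 overlapped, as did those of D28WO and Untreated. CCND3 was higher than Untreated at D14 (log2 difference 0.59, limma adjusted p = 0.000571) and at D28 (0.70, limma adjusted p = 4.2e-05). The call at D3 (0.29, limma adjusted p = 0.0224) was lost without any 1 of 4 libraries, replicates 2 and 3 of Untreated and of D3, with differences down to 0.21, and under median-ratio size factors (0.19, limma adjusted p = 0.145). In D28WO CCND3 was lower than at D28 (log2 difference -0.57, limma adjusted p = 0.000458).

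In U87 CCND3 stood at 100, 91.7 and 110 TPM in Untreated, 84.5 and 149 TPM at D3, 89.8 and 95.4 TPM at D14, 96.9, 88.6 and 77.5 TPM at D28, and 38.3, 36.0 and 48.6 TPM in D28WO. The 3 D28WO libraries lay below all other U87 libraries, whose groups overlapped with their neighbours in the order of means. CCND3 in D28WO was 0.410-fold of Untreated (log2 difference -1.29, SE 0.180, limma adjusted p = 0.000171) and 0.471-fold of D28 (-1.08, limma adjusted p = 0.00189).

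**Figure D2:**
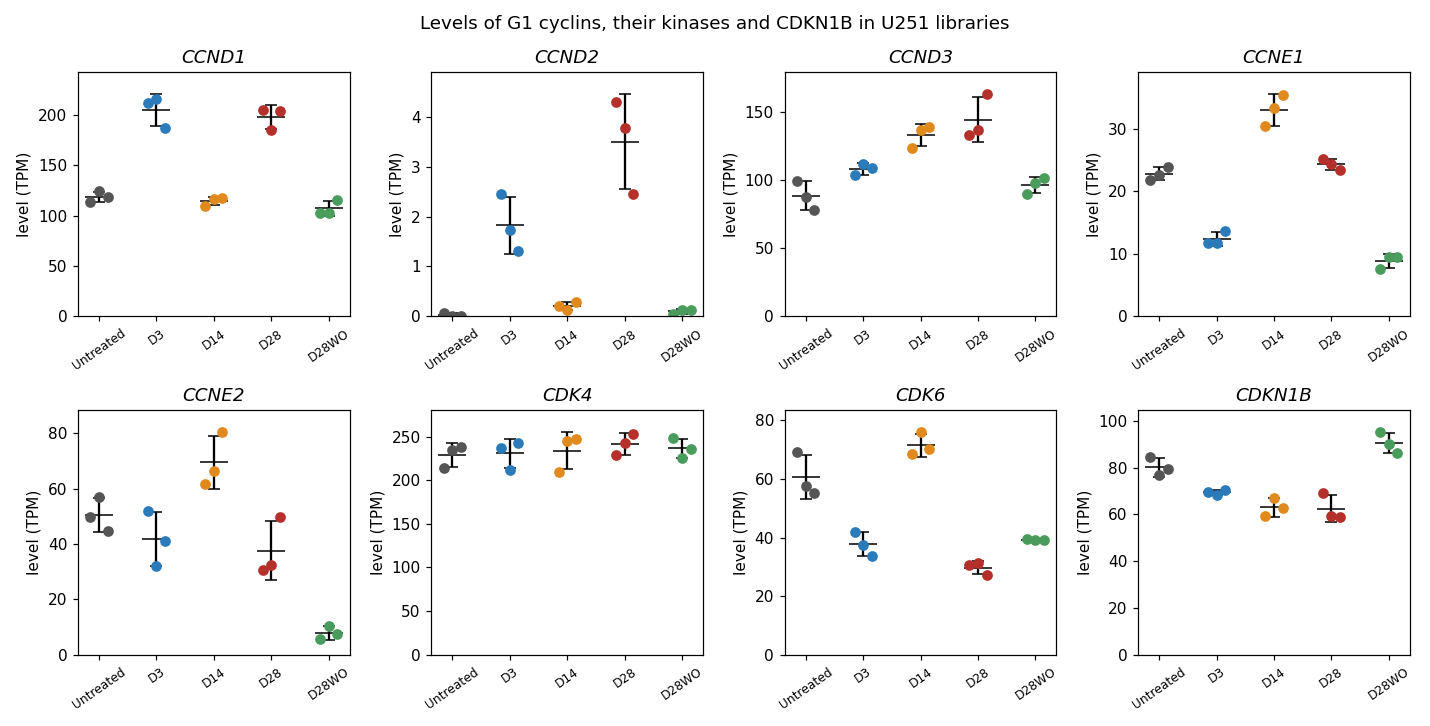
Level in TPM (vertical axes, each from 0) of 8 genes in the U251 libraries by group, where points are libraries, horizontal bars the mean and vertical bars the SD (n = 3). CCND1 and CCND2 were high at D3 and D28, CCNE2 was lowest in D28WO, and CDK4 kept within 209 to 254 TPM in all groups.

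CDK4 and CDK6 encode the kinases that D-type cyclins activate. CDK4 was the more abundant of the pair in every library. In U251 it lay between 209 and 254 TPM and was called in 0 of the 7 comparisons, at an unadjusted p that was above 0.05 in each. Its largest difference from Untreated in U251 was 0.08 at D28, with a 95% interval from -0.09 to 0.24, and under quantile normalization it was 0.19 and called higher (limma adjusted p = 0.0493). In U87 CDK4 stood at 328, 309 and 369 TPM in Untreated, 262 and 259 TPM at D3, 284 and 264 TPM at D14, 224, 248 and 295 TPM at D28, and 231, 243 and 245 TPM in D28WO. Every treated library lay below every Untreated library of U87, and the D28 and D28WO ranges overlapped. The difference from Untreated was -0.48 in D28WO (SE 0.0946, limma adjusted p = 0.00173), -0.40 at D28 (SE 0.0946, limma adjusted p = 0.0119) and -0.36 at D3 (SE 0.106, limma adjusted p = 0.0386). At D28 the call was lost without replicate 3 of Untreated (-0.32) and under quantile normalization (-0.18). At D3 it was lost without replicate 1 or 3 of Untreated or any library of D3, D14 or D28WO, and under quantile normalization (-0.16).

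CDK6 was called lower than in Untreated in U251 at D3, D28 and D28WO. Its level there was 69.1, 57.5 and 55.1 TPM in Untreated, 42.0, 37.6 and 33.7 TPM at D3, 68.4, 76.0 and 70.4 TPM at D14, 30.7, 31.2 and 27.3 TPM at D28, and 39.6, 39.0 and 39.0 TPM in D28WO. The D3, D28 and D28WO libraries lay below all Untreated and D14 libraries, whose ranges overlapped. CDK6 was 0.630-fold of Untreated at D3 (log2 difference -0.67, SE 0.0976, limma adjusted p = 9.48e-05), 0.501-fold at D28 (-0.998, SE 0.0976, limma adjusted p = 2.2e-06) and 0.656-fold in D28WO (-0.61, SE 0.0976, limma adjusted p = 0.000332). At D14 it was 1.18-fold of Untreated (0.24, limma adjusted p = 0.0966, unadjusted p = 0.0268), which limma called higher without replicate 1 of Untreated. From D28 to D28WO it rose by 0.39 (log2, limma adjusted p = 0.00849).

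In U87 CDK6 went from 17.5, 26.6 and 21.9 TPM in Untreated to 36.3, 37.1 and 29.2 TPM at D28, 1.54-fold higher (log2 difference 0.62, SE 0.160, limma adjusted p = 0.0164). That call was lost without replicate 1 of Untreated (0.48) or replicate 1 or 2 of D28 (0.58 and 0.56), and under quantile normalization (0.34) and median-ratio size factors (0.44). In D28WO of U87 CDK6 stood at 22.6, 17.0 and 21.9 TPM, within or below the Untreated range, and lower than at D28 (log2 difference -0.71, limma adjusted p = 0.00985). Against Untreated the difference of -0.09 was not called, but under quantile normalization it was -0.47 and called lower (limma adjusted p = 0.0267).

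The E-type cyclins CCNE1 and CCNE2 activate CDK2 at the entry into S phase. CCNE2 was at its lowest in D28WO of both lines. In U87 its level was 62.8, 58.0 and 60.1 TPM in Untreated, 30.4 and 42.5 TPM at D3, 51.0 and 56.8 TPM at D14, 54.8, 49.6 and 43.4 TPM at D28, and 6.85, 10.4 and 21.9 TPM in D28WO. The D28WO libraries lay below all others and the Untreated libraries above all others. CCNE2 in D28WO of U87 was 0.207-fold of Untreated (log2 difference -2.27, SE 0.293, limma adjusted p = 9.66e-05) and 0.254-fold of D28 (-1.98, limma adjusted p = 0.00102). At D3 the difference was -0.73 (limma adjusted p = 0.151), with both libraries below Untreated.

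In U251 CCNE2 stood at 49.8, 56.9 and 44.8 TPM in Untreated, 51.8, 32.2 and 41.1 TPM at D3, 61.6, 66.4 and 80.3 TPM at D14, 30.7, 32.4 and 49.7 TPM at D28, and 5.57, 10.4 and 7.26 TPM in D28WO. Again the D28WO libraries lay below all others, and D14 above all others, while Untreated, D3 and D28 overlapped. CCNE2 in D28WO was 0.166-fold of Untreated (log2 difference -2.59, SE 0.225, limma adjusted p = 1.21e-06) and 0.226-fold of D28 (-2.15, limma adjusted p = 1.1e-05). It was higher at D14 than at D3 (0.74, limma adjusted p = 0.0271), a call lost without any 1 of 4 libraries (replicates 2 and 3 of D3 and of D14). It was lower at D28 than at D14 (-0.89, limma adjusted p = 0.0120), lost without replicate 3 of D14 or replicate 1 or 2 of D28.

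CCNE1 in U251 was 21.9, 22.7 and 23.9 TPM in Untreated, 11.8, 11.7 and 13.7 TPM at D3, 30.4, 33.3 and 35.4 TPM at D14, 25.2, 24.4 and 23.4 TPM at D28, and 7.65, 9.54 and 9.45 TPM in D28WO. The D28WO and D3 libraries lay below all others and the D14 libraries above, while D28 and Untreated overlapped. CCNE1 was 0.561-fold of Untreated at D3 (log2 difference -0.83, SE 0.109, limma adjusted p = 3.41e-05), 1.43-fold at D14 (0.51, limma adjusted p = 0.00423) and 0.413-fold in D28WO (-1.28, SE 0.109, limma adjusted p = 1.01e-06). From D3 to D14 it rose by 1.35 (log2, limma adjusted p = 1.23e-06), and it was lower at D28 than at D14 (-0.43, limma adjusted p = 0.0129), the latter lost without replicate 3 of D14 (-0.38). In U87 CCNE1 held 31.1 to 33.2 TPM in Untreated and 21.1 to 41.6 TPM in the other groups, and limma called it in 0 of the 7 comparisons, with 0 of the 7 unadjusted p under 0.05. Its difference from Untreated in D28WO of U87 was -0.26 (limma adjusted p = 0.204), and it was called lower under quantile normalization (-0.57, limma adjusted p = 0.0102) and median-ratio size factors (-0.49, limma adjusted p = 0.0222).

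**Figure D3:**
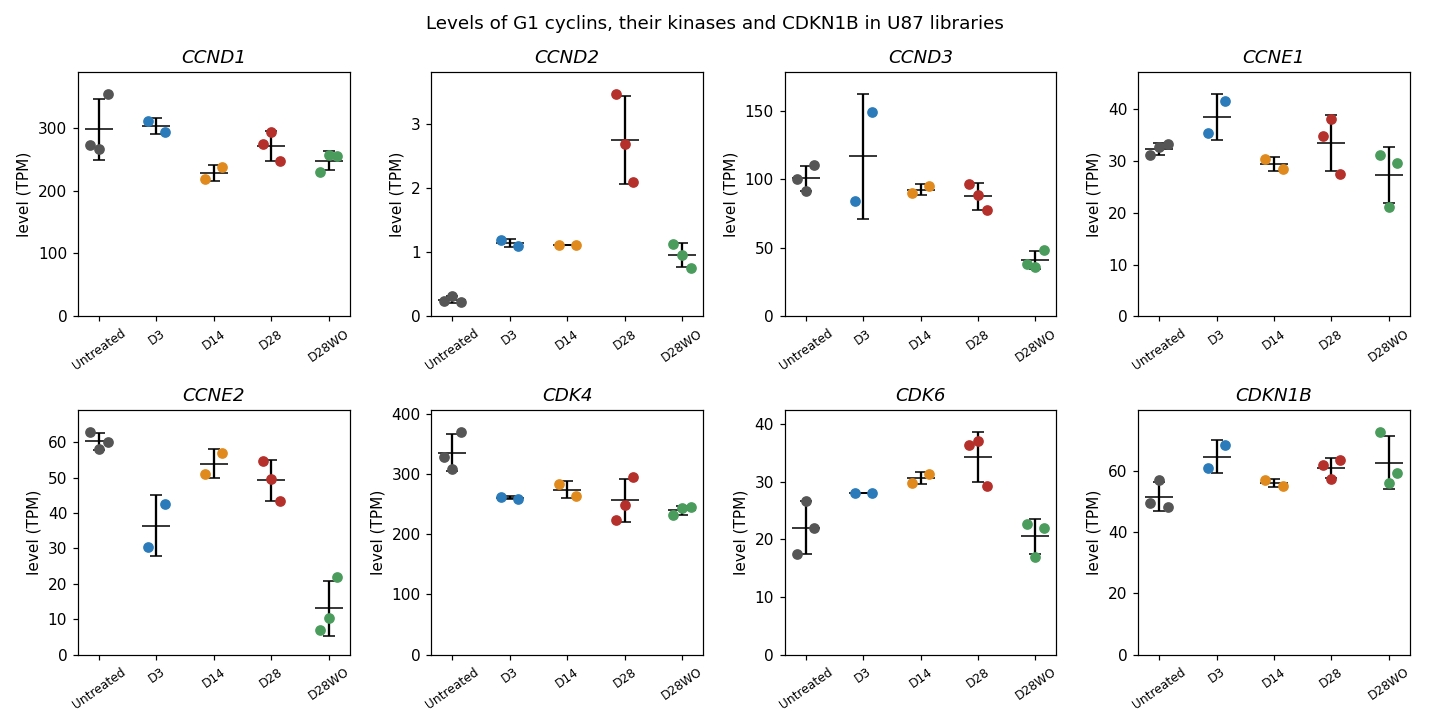
Level in TPM (vertical axes, each from 0) of 8 genes in the U87 libraries by group, where points are libraries, horizontal bars the mean and vertical bars the SD (n = 3, and n = 2 at D3 and D14). CCND3 and CCNE2 were lowest in D28WO, CCND2 highest at D28, and CDK4 highest in Untreated.

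Among the inhibitors, CDKN1B was expressed in every library. In U251 it was 84.5, 76.7 and 79.2 TPM in Untreated, 69.6, 68.1 and 70.4 TPM at D3, 59.2, 67.1 and 62.7 TPM at D14, 69.1, 59.3 and 58.9 TPM at D28, and 95.1, 90.3 and 86.4 TPM in D28WO. D28WO lay above all other groups and the 3 groups under IFN-γ below Untreated. The difference from Untreated was -0.34 at D14 (SE 0.0731, limma adjusted p = 0.00441) and -0.36 at D28 (SE 0.0731, limma adjusted p = 0.00141). The call at D3 (-0.20, limma adjusted p = 0.0377) was lost without replicate 1 or 3 of Untreated or any library of D3. In D28WO CDKN1B was 1.45-fold higher than at D28 (log2 difference 0.53, limma adjusted p = 0.000113), but the difference of 0.17 from Untreated did not pass the test (limma adjusted p = 0.0951). In U87 CDKN1B was 48.1 to 57.1 TPM in Untreated and 55.0 to 72.6 TPM in the other groups, and it was called in 0 of the 7 comparisons. Its differences from Untreated in U87 had an unadjusted p under 0.05 at D3, D28 and D28WO (limma adjusted p = 0.0844, 0.128 and 0.0580), and that in D28WO was called without replicate 2 of Untreated or of D28WO.

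CDKN2A was listed above 0 in 1 of the 13 U87 libraries, replicate 2 of Untreated at 1.58 TPM, and in 3 of the 15 U251 libraries, at no more than 0.599 TPM. CDKN2C was listed at 0 in all 13 U87 libraries and above 0 in 2 of the 15 of U251, at 0.288 and 0.0989 TPM. Neither was tested, since both fell under the minimum mean. Of 5 neighbouring genes of CDKN2A on chromosome 9, CDKN2B, the gene of p15 next to it, was above 0 in 1 U87 library and 0 of 15 in U251. MTAP, a gene of methionine salvage, averaged 0.222 TPM in U87 and 73.4 TPM in U251, KLHL9 averaged 0.0502 and 35.3 TPM, and DMRTA1 was listed at 0 in all U87 libraries and averaged 6.71 TPM in U251. ELAVL2 was above 0 in all libraries, at a mean of 4.11 TPM in U87 and 1.69 TPM in U251. Near CDKN2C on chromosome 1, DMRTA2 was listed at 0 in all 13 U87 libraries and averaged 0.0436 TPM in U251, FAF1 averaged 0.0644 and 0.0551 TPM in U87 and U251, while RNF11 averaged 104 and 119 TPM and EPS15 67.6 and 72.4 TPM. These levels stand side by side from separately normalized tables, and the copy number of these loci was not measured here.

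Of the other CDK inhibitors, 3 of 4 were tested in each line. In U251 1 was higher at D3, 2 at D14, 2 at D28 (1 without any one of 5 libraries, each Untreated library among them) and 2 in D28WO, where 1 was lower. Of all genes in U251, 24.9% were called higher at D3, 13.8% at D14, 25.9% at D28 and 14.3% in D28WO, so 1 of 3 at D3 and the 1 of 3 left at D28 are near the share over all genes. Under median-ratio size factors 0 were higher at D3 and 1 at D28. CDKN1A, the gene of p21, was 1.23 higher (log2, limma adjusted p = 5.21e-07) at D14 of U251 than in Untreated, at 97.7 against 40.9 TPM, and was also the gene called higher at D3 (0.33). It was higher at D28 (0.83), and lower in D28WO than at D28 (-1.38, limma adjusted p = 1.83e-07) and than in Untreated (-0.55, limma adjusted p = 0.000361). CDKN2D (p19) was the other gene higher at D14 and D28 (0.41 and 0.20), and was higher in D28WO (0.29). CDKN1C (p57) was higher in D28WO of U251 than in Untreated (1.37, limma adjusted p = 0.000309). In U87 0 of the list were called at D14 and D28 (0 and 1 at an unadjusted p under 0.05 in limma). At D3 CDKN2D was lower by -0.35 (limma adjusted p = 0.0270), a call lost without replicate 1 of Untreated or either D3 library. The call in D28WO against Untreated was again CDKN2D, lower by a log2 difference of -0.73 (limma adjusted p = 4.57e-05), with 1 further gene higher under quantile normalization.

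Relative levels within a library do not depend on the scaling between libraries. CCNE1 made up 34.9% ± 1.60 (SD, n = 3) of the E-type cyclin TPM in Untreated of U87 and 68.8% ± 12.3 (n = 3) in D28WO. In U251 the share went from 31.3% ± 3.23 to 54.1% ± 5.46 (each n = 3). In both lines all D28WO libraries lay above all Untreated libraries. At D3 the CCNE1 share was 51.6% ± 3.06 in U87 (n = 2) and 23.4% ± 4.29 in U251 (n = 3), above and below all Untreated libraries of its line. CDK4 made up 93.8% ± 1.53 of CDK4 plus CDK6 in Untreated of U87 and 88.0% ± 2.64 at D28, whereas in U251 its share went from 79.1% ± 3.06 to 89.0% ± 1.11 (each n = 3), with no overlap in either line. CCND1 made up 74.5% ± 1.56 of the D-type cyclins in Untreated and 85.5% ± 1.82 in D28WO of U87, and 57.3% ± 3.61 in Untreated and 46.2% ± 0.672 at D14 of U251 (each n = 3). At D3 of U251 the CCND1 share was 65.0% ± 1.93 (n = 3), above all Untreated libraries where D14 lay below them, and at D28 and D28WO it overlapped them. Over 12 such comparisons a line, the lowest 2-sided exact permutation p was 0.1, the smallest that 3 against 3 libraries can give, and 0.2 is the smallest for 2 against 3. The adjusted values were at least 0.267 in U87 and 0.171 in U251 (exact permutation tests), so no share passed.

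**Figure D4:**
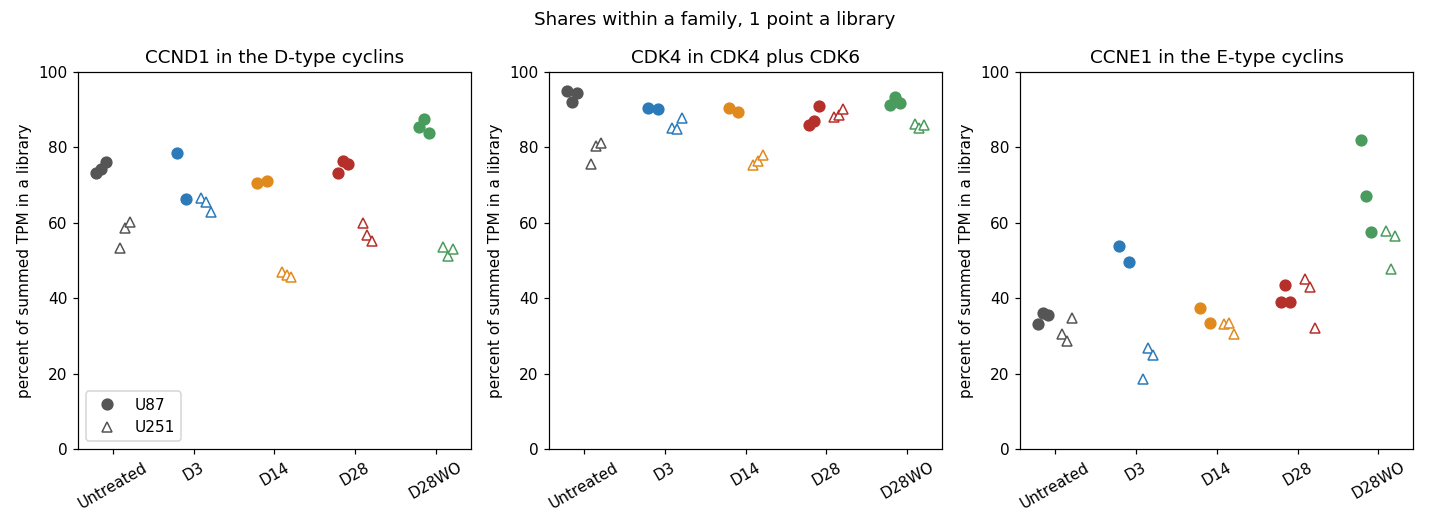
Percent of CCND1 in the summed TPM of the D-type cyclins, of CDK4 in CDK4 plus CDK6, and of CCNE1 in both E-type cyclins (vertical axes, 0 to 100), by group, with 1 point a library, filled circles for U87 and open triangles for U251. The CCNE1 share of D28WO lay above every other group in both lines, from 57.5% to 82.0% in U87 and 47.8% to 57.9% in U251.

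Steps between treated groups were tested within each line, and their numbers were not compared between the lines. In U87 limma called 0 members from D3 to D14 and 0 from D14 to D28, with 1 unadjusted p under 0.05 in each. Of all genes, 1.47% and 2.94% were called higher and 3.32% and 1.12% lower. Beside these shares, and with 2 libraries each at D3 and D14 of U87, 0 of 8 members is no result about the members. In U251, 4 members were higher and 2 lower at D14 than at D3, and 2 were higher and 3 lower at D28 than at D14. The background there was 12.8% higher and 12.6% lower for the first step and 11.3% and 9.48% for the second. CCND1 and CCND2 were lower at D14 than at D3 and higher at D28 than at D14, and CCNE1, CCNE2 and CDK6 were higher at D14 than at D3 and lower at D28 than at D14. CCND3 was also higher at D14 than at D3, a call lost without replicate 1 or 3 of D3 or replicate 2 or 3 of D14. These comparisons share the D14 libraries. From D28 to D28WO, 0 members were higher and 4 lower in U87 (9.90% and 8.44% of all genes), and 2 were higher and 5 lower in U251 (10.3% and 18.8%). CCND2, CCND3 and CCNE2 were lower in both lines, CDK6 was lower in U87 and higher in U251, and CCND1 and CCNE1 were lower and CDKN1B higher in U251.

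The genes that E2F switches on for DNA synthesis were lower in the D28WO libraries, as CCNE2 was. In U87, 11 of 11 (PCNA, RRM1, RRM2, TYMS, TK1, CDC6, CDT1, MCM2, MCM5, MCM6, POLA1) were lower than in Untreated, with a median of -1.06 (log2) against 0.25 for all genes. CDC6, which loads the replicative helicase, went from 188 to 62.0 TPM (log2 difference -1.61, SE 0.125, limma adjusted p = 2.61e-06). In U251, 10 of the 11 were lower, with a median of -0.91 against 0.015, and CDT1 was the exception (-0.15). RRM2, a subunit of ribonucleotide reductase, went there from 174 to 48.9 TPM (-1.81, SE 0.101, limma adjusted p = 1.3e-08). Against D28, 11 of 11 were lower in both lines (10 in U251 under median-ratio size factors). The counts of 11 and 10 against Untreated were the same without each library in turn and under quantile normalization and median-ratio size factors.

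At the other times this list moved less in U87, where limma called 0, 0 and 1 of its 11 genes at D3, D14 and D28, the 1 being lower (5, 0 and 5 at an unadjusted p under 0.05). Median-ratio size factors gave 3, 0 and 6 lower and quantile normalization 0, 0 and 0. Of all genes tested in U87, 12.4%, 4.14% and 17.2% were called higher at these times and 4.28%, 1.02% and 6.55% lower. Counts of 0, 0 and 1 are thus no result about this list. In U251, 2 were higher and 3 lower at D3 (2 and 7 under median-ratio size factors). At D14 6 were higher (4 under median-ratio size factors), and at D28 1 was higher and 2 lower. Of all genes in U251, 24.9% were called higher and 16% lower at D3, 13.8% and 7.31% at D14, and 25.9% and 14.7% at D28. Beside these shares, 2 higher and 3 lower at D3 and 1 higher and 2 lower at D28 are no result about the list. The 1 lower at D28 of U87 was lost without any one of 10 libraries, and the 6 higher at D14 of U251 fell to 4 without replicate 3 of Untreated or replicate 2 or 3 of D14. At D3 of U251 the counts went from 1 to 3 higher and 2 to 4 lower as single libraries were left out. Of 8 mitotic genes (such as CCNB1, CDK1 and MKI67), 8 were higher at D14 of U251, with a median of 0.59, in all scalings. At D3 of U251 2 of the 8 were lower, 0 without replicate 3 of Untreated or replicate 2 of D3, and at D28 1 was higher. Beside 16% of all genes lower at D3 and 25.9% higher at D28, these counts are no result about the mitotic genes. In U87 1 was lower at D3, 0 at D14 (0 at an unadjusted p under 0.05 in limma) and 3 at D28. These became 3, 0 and 6 under median-ratio size factors and 0, 0 and 1 under quantile normalization, and 0 to 2 at D3 and 1 to 3 at D28 without single libraries. In D28WO 7 of the 8 were lower in U87 (4 under quantile normalization), and in U251 3 were lower (CDK1, MKI67, TOP2A) and 1, AURKA, higher.

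In D28WO 28.6% of all genes tested were called higher and 13.4% lower than in Untreated in U87, and 14.3% and 13.4% in U251, and with shares of this size the higher calls in the U87 lists that follow are no result about those lists. Among 10 E2F and DP factors, 4 were higher and 4 lower in D28WO than in Untreated of U87 (2 higher and 5 lower under median-ratio size factors, 2 and 4 under quantile normalization), and 2 were higher and 4 lower in U251. Leaving out 1 library gave 3 to 5 higher and 3 to 4 lower in U87, and 2 higher and 2 to 5 lower in U251 (2 without replicate 1 of Untreated). E2F1, an activator, was lower in both lines (-1.24 in U87 and -1.11 in U251), and E2F5, which acts mainly as a repressor, was higher in both (1.53 and 0.80, limma adjusted p of at most 1.41e-05 for these 4 values). At D3 of U251, 7 of the 10 were higher and 0 lower, 5 and 1 under median-ratio size factors, beside 24.9% and 16% of all genes. RB1 itself was called in 0 of the 4 comparisons with Untreated in either line, and averaged 51.5 TPM in U87 and 73.5 TPM in U251. Of the 3 pocket proteins, RBL1 was lower and RBL2 higher in D28WO of U87 (RBL2 not called under median-ratio size factors), and 0 were called in D28WO of U251. CDK2, the partner of the E-type cyclins, was lower in D28WO of both lines (-0.69, limma adjusted p = 0.000300 in U87, and -0.44, limma adjusted p = 0.0386 in U251). The CDK2 list of 6 genes had 2 higher and 3 lower in D28WO of U87 (0 and 3 under median-ratio size factors) and 0 higher and 3 lower in U251. The 2 higher in U87 fell to 0 without replicate 3 of Untreated or replicate 2 of D28WO and to 1 without any one of 3 other libraries, and the 3 lower in U251 went to 2 without any one of 4 libraries. Of 7 genes of cyclin and inhibitor turnover, 3 were higher and 3 lower in D28WO of U87 (0 and 3 under both other scalings) and 2 and 2 in U251, with SKP2, which marks p27 for degradation, at -1.40 in U87 (limma adjusted p = 3.44e-06) and -0.45 in U251. The 3 higher in U87 fell to 0 without replicate 3 of Untreated and to 1 without replicate 2 or 3 of D28WO. The 2 and 2 in U251 fell to 0 and 1 without replicate 3 of Untreated.

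**Figure D5:**
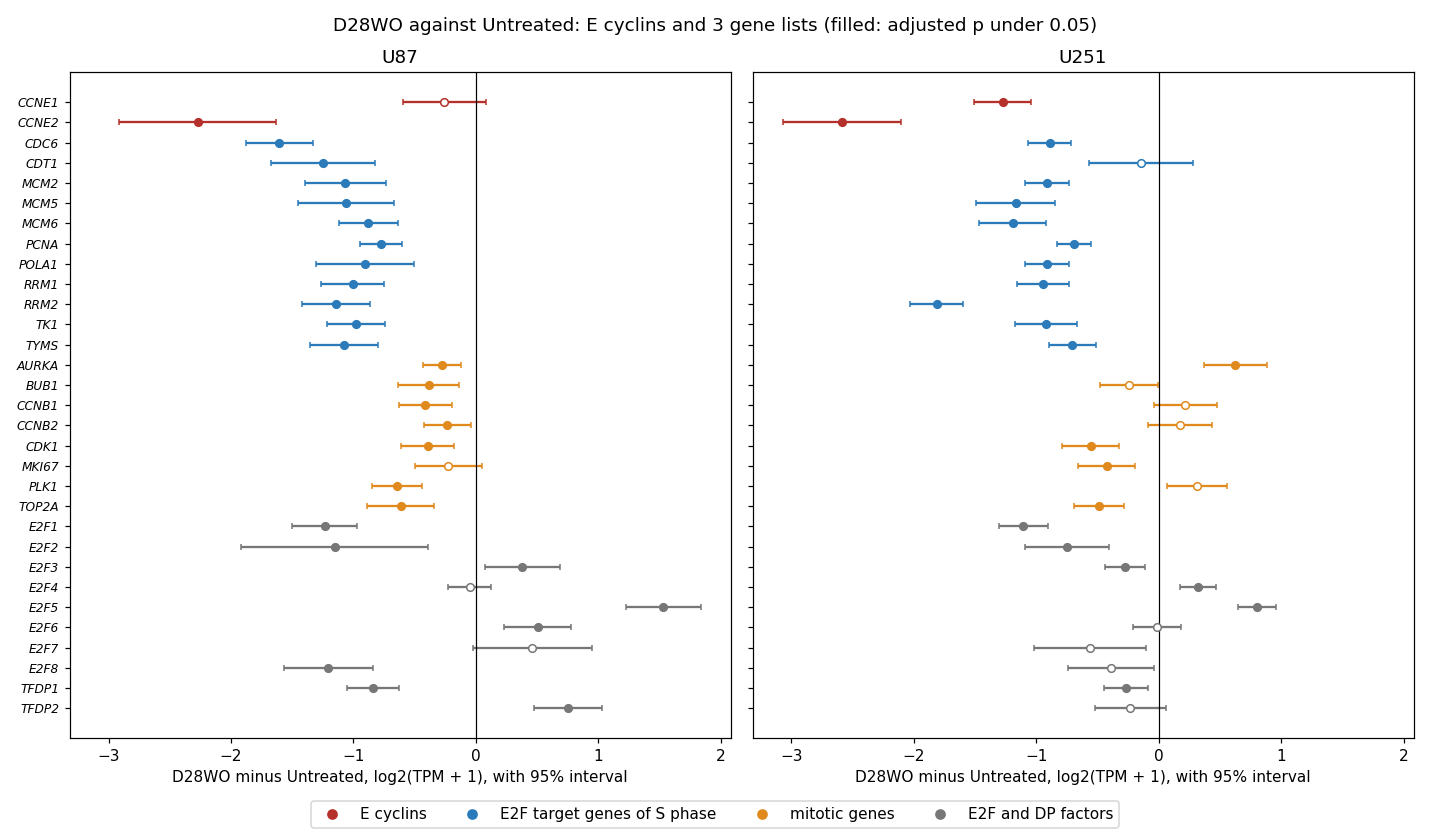
Difference of D28WO from Untreated on the log2(TPM + 1) scale (horizontal axis), with 95% intervals from limma, for the E-type cyclins and genes of 3 lists in U87 (left) and U251 (right). Filled points have an adjusted p under 0.05. CCNE2 lies farthest to the left in both panels, and of the S phase genes all 11 in U87 and 10 in U251 are filled points left of 0.

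Genes with the pattern most like a member's were named by Pearson's r over the libraries of a line among genes whose mean reached 10 TPM, as a description. For CCNE2 over the 15 libraries of U251 they were UHRF1 (r = 0.982), PCNA (0.981) and FEN1 (0.980), which serve DNA methylation and replication. For CCNE2 over the 13 libraries of U87, WDR76 (0.987) and UBR7 (0.985) were among the nearest. CCND1 in U251 was nearest to FICD (0.938), and CCND2 to TMEM154 (0.980) in the same line. CCNE1 and CDK6 in U251 were nearest to TBXAS1 (0.974) and ANKRD50 (0.975), CDKN1B to MITF (0.959) and CCND3 to SCG2 (0.935). In U87 CCND3 was nearest to FBXO3 (0.971), CDK6 to POGLUT3 (0.942) and CDK4 to OAZ1 (0.983). Among the members themselves, CCND1 and CCND2 in U251 (r = 0.921) and CCND3 and CCNE2 in U87 (r = 0.884) had the highest correlations. The points of these correlations share the groups and the scaling of each library.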

How the data were processed

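RNA of U87 and U251 was sequenced as paired 150 bp reads (30 samples in the labels). Per the labels and the study's methods, the authors used FastQC 0.11.9, Trim Galore 0.6.6, STAR 2.7.10a and featureCounts 2.0.3 on GRCh38. They deposited TPM values, 1 table a line, and how TPM was computed is not given in the sources used here. The 2 U87 columns that share a name were left out, so 28 libraries entered. Groups come from the labels.

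Genes whose mean in a line reached 0.5 TPM were tested as log2(TPM + 1) with limma 3.58.1 in R 4.3.3 (eBayes with trend, 5 groups in 1 fit, Benjamini-Hochberg over all genes tested). Shares within a library were compared with 2-sided exact permutation tests (scipy 1.17.1). The procedure was tested on simulated data. The study's methods give a minimum read depth per sample, but TPM holds no depth per library, so no counting interval is given, and libraries of a group correlated at 0.959 to 0.974.

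The members, gene lists and the rule for named genes (all members, up to 3 called genes of a list by size of change, and the 3 genes most like each called member, of which some are printed) were chosen with earlier results of these data known. Some genes of the lists are not reported here and were left out of the list counts. Genes outside that rule are named where they complete a list or a count. Counts of the pathway lists under other scalings and without each library were added after the data were seen. Alternatives were another pseudocount, filters, scalings, weights, a replicate block, fits of only 2 groups and leaving out each library.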

Additional observations from a re-analysis of the deposited data

Results flagged for a closer look

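Several members differed from Untreated in opposite directions in the lines, with every treated library of one line above, and of the other below, all its Untreated libraries. Of the 8 members tested in both lines these were 3 at D3, 2 at D14, 2 at D28 and 0 in D28WO. Of all 20473 genes tested in both lines, 6.77%, 6.41%, 6.46% and 6.22% separated in opposite ways in these comparisons. At D3 and D14 of U87 only 2 libraries stood against 3, for which complete separation gives an exact permutation p of 0.2 at the smallest. The difference between the lines was not tested, because their tables were normalized separately. At D3 CCNE1 differed by 0.24 (log2) in U87 and -0.83 in U251, CDK6 by 0.35 and -0.67, and CDKN1B by 0.32 and -0.20. At D14 CCNE1 differed by -0.13 in U87 and 0.51 in U251, and CCNE2 by -0.16 and 0.45. At D28 CDK6 differed by 0.62 in U87 and -0.998 in U251, and CDKN1B by 0.24 and -0.36. Of the U87 values only CDK6 at D28 passed its own test (limma adjusted p = 0.0164), and of the U251 values all except CCNE2 at D14 (limma adjusted p = 0.183). The U87 values at D3 and D28 were smaller under other scalings, and those at D14 were larger. Under quantile normalization CCNE1 at D3 was -0.000815, CDK6 at D3 0.052, CDKN1B at D3 0.17, CDK6 at D28 0.34 and CDKN1B at D28 0.081. Under median-ratio size factors these were 0.048, 0.16, 0.13, 0.44 and 0.047. At D14 CCNE1 was -0.33 and CCNE2 -0.27 under quantile normalization, and -0.31 and -0.34 under median-ratio size factors.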

How the results depend on the processing

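Of the 47 called differences of members, 36 stayed called under all alternatives to the fit, 11 lost the call under at least 1, and 0 changed direction. A limit on the size of the difference was not among these alternatives. With the study's further limit of an absolute log2 difference over 1, the called members numbered 0 at D3, 1 at D28 and 2 in D28WO of U87 against Untreated and 2 in D28WO against D28. In U251 this limit left 1 at D3, 0 at D14, 1 at D28 and 2 in D28WO against Untreated (3 without the limit in D28WO), 2 at D14 against D3, 2 at D28 against D14 and 3 in D28WO against D28. In U87 at D3 the count of 1 was 2 with a pseudocount of 0.1 (CCND2 added) and 0 without a filter, under quantile normalization and with only the 2 groups in the fit, and it ranged from 0 to 1 without each library in turn. At D28 of U87 the count of 3 was 1 under quantile normalization and with only the 2 groups in the fit. At D14 against D3 of U87 the count of 0 was 1 under quantile normalization and ranged from 0 to 1 without each library, with the 1 (CCND1) reached without replicate 3 of Untreated. At D28 against D14 of U251 the count of 5 ranged from 3 to 5, with 3 without replicate 3 of D14. The cause was not tested.

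Of the differences in share from Untreated, in percentage points, 5 changed sign without 1 library. CCND1 in the D-type cyclins ranged from -8.37 to 3.88 at D3 of U87, from -0.18 to 1.43 at D28 of U87 and from -2.10 to 1.32 at D28 of U251, where it was 0.075 on TPM + 1. CCNE1 in the E-type cyclins ranged from -1.58 to 2.38 at D14 of U87 and from -0.31 to 2.85 at D14 of U251. The libraries of these groups overlapped in each of the 5.

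Deviations of same-numbered libraries from their group means correlated at -0.058 to 0.047 in U87 and -0.037 to 0.048 in U251, with 0 of 23 and 0 of 30 pairs over 0.1. No pairing by replicate number was thus seen, but deviations from means of 2 or 3 libraries cannot exclude it. With the replicate number as a block, 1 call was lost (CCND2 in D28WO of U87, 0.63) and no other call changed. The tables hold no depth per library, so the precision of low values such as those of CCND2 rests on the spread of 2 or 3 libraries.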
